A study of Mus musculus with 18 samples.

Results

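RNA transcribed from the mitochondrial genome was followed in mouse splenocytes of 4 treatment groups. All reference genes whose symbol starts with mt- were taken, which gave 37 genes, namely 13 protein genes, 2 ribosomal RNA (rRNA) genes and 22 transfer RNA (tRNA) genes, of 47729 reference genes in each of 18 tables. The samples were labelled as spleen, although their protocol fields describe RNA from melanoma tumours under other treatments, whereas the study's methods describe splenocytes. The mice were labelled as female C57BL/6J animals of 4 to 6 weeks. The LMA group had 6 libraries from mice given LPPC/MP and then LPPC/MP/CD28. The LMS group had 6 libraries from mice given LPPC/MP and then LPPC/MP/CTLA4, whose labels write CD152, another name of CTLA4. The LM group had 3 libraries from mice given LPPC/MP at the immunization and at the boost, and the N group had 3 libraries from untreated mice. LPPC is a cationic liposome coated with polyethylene glycol and polyethyleneimine that adsorbs proteins, MP stands for membrane proteins extracted from dendritic cells, and CD28 and CTLA4 stand for antibodies against these surface proteins of T cells. The labels do not tell which LMA and LMS mice had 1 and which had 2 antibody treatments. No label states whether libraries of a group came from separate mice, so the p-values reflect only how these libraries vary, which may be technical.

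The mitochondrial genome is a small circle that encodes core subunits of 4 of the 5 complexes of oxidative phosphorylation, the process by which electrons from nutrients drive ATP synthesis, together with the rRNAs and tRNAs needed to translate them inside the organelle. Complex I (NADH dehydrogenase) takes the mt-Nd subunits, complex III takes cytochrome b (mt-Cytb), complex IV (cytochrome c oxidase) takes mt-Co1, mt-Co2 and mt-Co3, and complex V (ATP synthase) takes mt-Atp6 and mt-Atp8. Each strand is transcribed as a long precursor that is cut mostly at the tRNAs, so that final levels of neighbouring genes also depend on processing and decay, while all other subunits are made from nuclear genes.

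The genes lie close together or overlap, and parts of the genome have copies in nuclear DNA. On the GRCm38 build, mt-Atp8 (MT:7766-7969, plus strand) shares 43 bases with mt-Atp6 (MT:7927-8607, plus strand). The shared stretch, MT:7927-7969, is shown because a read inside it could come from either gene, with the start codon of mt-Atp6 and the stop codon of mt-Atp8 in capitals.
overlap: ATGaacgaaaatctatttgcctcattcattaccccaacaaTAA
A segment of chromosome 1 carries 6 annotated copies on its minus strand, which bear on how far levels can be assigned to the organelle. Gm10925 (chr1:24613974-24614651) was identical to mt-Atp6 over all 678 aligned bases, and its first 60 bases are given beside those of mt-Atp6, with the start codon in capitals.
mt-Atp6: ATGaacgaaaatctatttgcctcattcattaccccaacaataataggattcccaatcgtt
Gm10925: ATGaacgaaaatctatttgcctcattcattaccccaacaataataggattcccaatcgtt
Gm29216 (chr1:24615706-24616197) matched the end of mt-Co1 in 482 of 483 bases. The single difference was A1066T, with the base of mt-Co1 first and positions counted from 1 at the first base of mt-Co1, and it stands in capitals in these stretches of MT:6390-6449 and chr1:24616129-24616188.
mt-Co1: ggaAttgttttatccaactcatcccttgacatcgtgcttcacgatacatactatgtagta
Gm29216: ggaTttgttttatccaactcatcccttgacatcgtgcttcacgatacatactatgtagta
The other copies were identical to their genes over the aligned bases, namely Gm28437 to mt-Co3 (783 bases), Gm28438 to mt-Nd3 (342), Gm28439 to mt-Nd4 (876) and Gm28661 to mt-Co2 (681).

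Of the 6 copies, 3 were listed at nearly the same level as their genes. Gm10925 had 0.998 to 1.01 times the FPKM (fragments per kilobase, scaled to the mapped fragments of the library) of mt-Atp6 over the 18 libraries, and Gm28661 and Gm28437 had 1.00 to 1.01 and 0.997 to 1.01 times those of mt-Co2 and mt-Co3. Gm28438 had 0.961 to 1.44 times the FPKM of mt-Nd3, Gm28439 had 0.592 to 0.667 times that of mt-Nd4, which is longer than its copy, and Gm29216 had 0.295 to 0.355 times that of mt-Co1. Reads of mt-Atp6, mt-Co2, mt-Co3, mt-Nd3, the first 876 bases of mt-Nd4 and the end of mt-Co1 therefore could not be told from those of the copies. The levels of these 6 genes are uncertain to that extent. The genes mt-Nd1, mt-Nd2, mt-Nd4l, mt-Nd5, mt-Nd6, mt-Cytb and mt-Atp8 and both rRNA genes had no copy on that list. The list holds annotated copies only, and the sequence of chromosome 1 between them was not compared. mt-Atp8 lies between mt-Co2 and mt-Atp6, and mt-Nd4l between mt-Nd3 and mt-Nd4. Copies of mt-Atp8 and mt-Nd4l there were thus not excluded. The first 43 bases of Gm10925 are also the end of mt-Atp8.

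The libraries held 5.21 to 7.92 gigabases of aligned sequence, as derived from the coverage and FPKM of mt-Co1. Some libraries stood apart from their labels. Transcripts of 4 Y-linked genes summed to 50.7 FPKM or more in the 6 LMA, 4 of 6 LMS, 3 LM and 1 of 3 N libraries, although all mice were labelled female, and to 0.00204 FPKM or less in LMS 2, LMS 5, N 1 and N 2. These 4 libraries had the highest summed levels of 6 T cell markers (320 to 452 FPKM, against 6.89 to 101 in the other 14) and of 6 B cell markers. They were not alike, since 6 erythroid markers summed to 71804 to 83413 FPKM in LMS 2, LMS 5 and N 2 but to 2518 in N 1, and neutrophil precursor markers to 119 to 124 FPKM but to 5.05 in N 1. Macrophage markers summed to 3095 to 3417 FPKM in LMS 1, LMS 3, LMS 4, LMS 6 and N 3, to 1884 to 2026 in the LMA and LM libraries and to 461 to 537 in LMS 2, LMS 5, N 1 and N 2. The spleen markers of B and T cells were thus lowest in N 3, with 25.8 and 6.89 FPKM. Results with the LMS and N groups are given with and without these libraries, and the part of cell makeup in them was not tested. In whole splenocytes, fewer cells of a type and less RNA per cell cannot be told apart.

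The mitochondrial genes made up between 2.52% and 4.36% of the aligned sequence of a library. mt-Co1, the catalytic subunit of cytochrome c oxidase, had the highest FPKM of the 13 protein genes in all 18 libraries (6126 to 11105). mt-Atp8 was the second in 17 libraries, and mt-Atp6 in the remaining one. By mean FPKM the order went on with mt-Co2 (2339), mt-Co3 (2050), mt-Nd1 (1884), mt-Cytb (1823), mt-Nd6 (1412), mt-Nd5 (1280), mt-Nd4 (1154), mt-Nd2 (1054) and mt-Nd4l (836), and mt-Nd3, with 223, was the last in all 18 libraries. Neighbours in this order between mt-Co2 and mt-Nd2 changed places among libraries. The rRNAs mt-Rnr2 (16S, of the large ribosomal subunit) and mt-Rnr1 (12S, of the small subunit) averaged 766 and 461 FPKM, below 12 of the 13 protein genes. The study's methods do not describe how RNA was selected for the libraries, so this order need not be that in the cells.

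By group, the share of aligned sequence was 2.67% ± 0.128 in LMA (SD, n = 6), 3.68% ± 0.674 in LMS (n = 6), 3.25% ± 0.273 in LM (n = 3) and 3.23% ± 0.446 in N (n = 3). The LMA libraries ran from 2.52% to 2.84% with a median of 2.66%, against 3.14%, 3.56% and 3.04% in LM and 2.89%, 3.06% and 3.73% in N, so that all LMA libraries lay below all LM and N libraries. The LMS libraries fell apart, with 2.83% and 2.84% in LMS 2 and LMS 5 and 3.92% to 4.36% in the other 4. The share is a sum over the genes studied and was not tested.

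**Figure D1:**
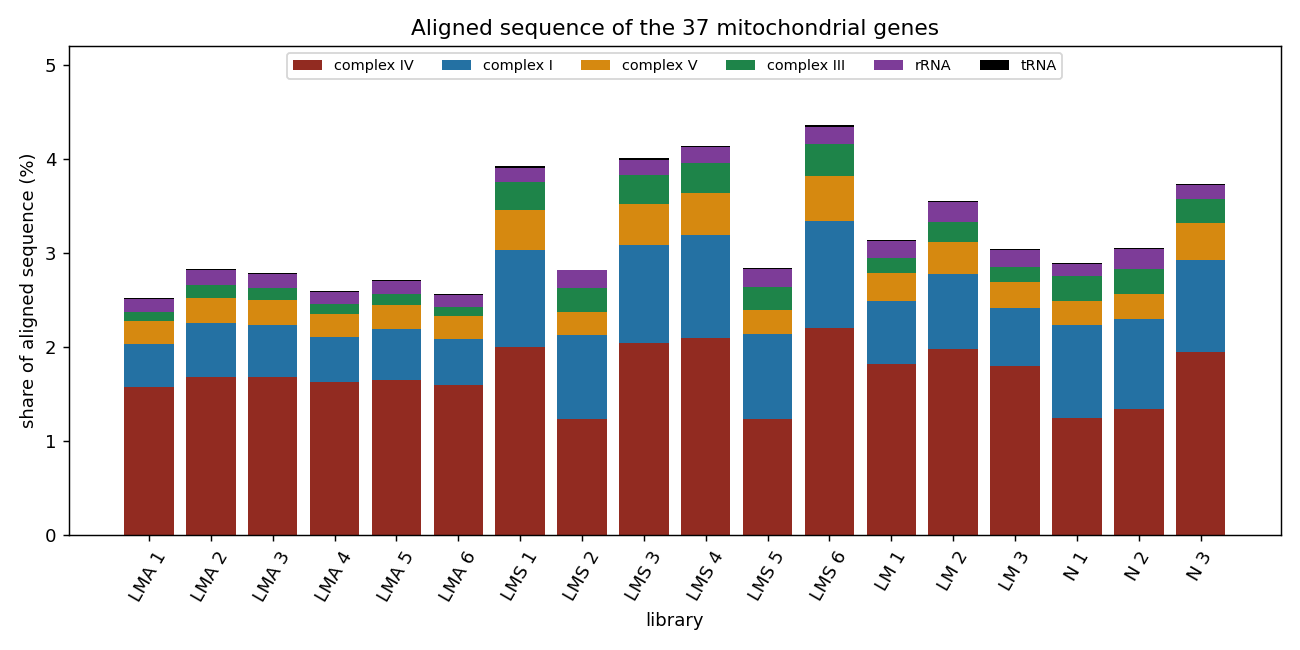
Share of aligned sequence (%) of the 37 mitochondrial genes in each of the 18 libraries, stacked by complex, rRNA and tRNA. The 6 LMA bars sit between 2.52% and 2.84%, and the largest bar is LMS 6 with 4.36%.

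The first comparison asked how mice given LPPC/MP and then LPPC/MP/CD28 differed from untreated mice. Transcripts of complex I and of cytochrome b fell in LMA against N, whereas those of complex IV and V did not pass the test, apart from mt-Co2, whose call was lost in 16 of 32 other settings. limma on log2(FPKM + 0.5) over 14395 genes, with Benjamini-Hochberg adjusted p under 0.05 as the limit, called 14 of the 37 genes lower (37.8%) and 0 higher. The background was 32.5% of all genes tested called, 19.0% lower and 13.5% higher. Of the 13 protein genes, 9 fell (69.2%), with a median log2 fold change of -0.78, against a median of -0.09 over all genes tested. All LMA libraries lay below all N libraries for 17 of the 37 genes (45.9%), where 16.4% of all genes did. The 9 were all 7 complex I subunits, mt-Cytb and mt-Co2.

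mt-Cytb, the electron-carrying subunit of complex III, ran from 874 to 1243 FPKM in LMA (median 977), against 2345, 2288 and 2284 FPKM in N. The groups were far apart, and the fall was the largest of the 15 protein and rRNA genes (log2 fold change -1.19, SE 0.15, limma adjusted p = 2.8e-05). mt-Nd1, the subunit of complex I near its quinone site, ran from 941 to 1287 FPKM in LMA (median 1022), against 2143, 2315 and 2497 FPKM in N. It fell by 1.12 on the log2 scale (SE 0.16, limma adjusted p = 7.8e-05). mt-Nd4l, a small membrane subunit of complex I, ran from 481 to 612 FPKM in LMA (median 529), against 1151, 1013 and 1060 FPKM in N (log2 fold change -1.01, SE 0.11, limma adjusted p = 8.1e-06). No LMA library reached the lowest N library for any of these 3 genes.

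The other complex I subunits fell as well. mt-Nd3 averaged 127 ± 22.5 FPKM in LMA and 267 ± 33.6 in N (SD, n = 6 and 3), a log2 fold change of -1.08. mt-Nd2 averaged 635 ± 74.0 FPKM in LMA and 1321 ± 26.7 in N (-1.06), and mt-Nd4, which forms part of the proton-pumping membrane arm with mt-Nd2 and mt-Nd5, averaged 760 ± 80.6 FPKM in LMA and 1445 ± 81.4 in N (-0.93). The falls were smaller for mt-Nd5 (935 ± 66.6 FPKM in LMA and 1545 ± 65.8 in N, -0.73) and for mt-Nd6 (992 ± 115 in LMA and 1697 ± 89.0 in N, -0.78). mt-Nd6 is the only protein gene on the minus strand. It overlaps mt-Nd5 by 14 bases, and since the sources do not state whether counting used strand, its reads cannot be told from transcripts of the opposite strand.

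Genes of complex IV and V showed other patterns. mt-Co2, the subunit that takes electrons from cytochrome c, averaged 1777 ± 145 FPKM in LMA and 2472 ± 341 in N, and fell by 0.47 on the log2 scale (SE 0.17, limma adjusted p = 0.045). That call was lost without the filter, on the TPM and median-of-ratios scales, with the replicate block, with the copies added, and when any 1 of LMA 1, LMA 3, LMA 4, LMA 5, LMA 6, LMS 1, LMS 3, LM 1, LM 3, N 2 or N 3 was left out. mt-Co1 ran from 8708 to 9224 FPKM in LMA (median 9091), against 6220, 6708 and 10165 FPKM in N, so that LMA lay inside the range of N (log2 fold change 0.26, SE 0.23, limma adjusted p = 0.37). mt-Atp8 ran from 2801 to 3097 FPKM in LMA (median 2961), against 3018, 3085 and 4740 FPKM in N (-0.26, adjusted p = 0.40). mt-Atp6 (-0.28) and mt-Co3 (-0.34) did not pass either, although all LMA libraries lay below all N libraries for mt-Co3. Of the rRNAs, mt-Rnr1 ran from 433 to 519 FPKM in LMA (median 456), against 249, 596 and 265 FPKM in N (0.45, adjusted p = 0.15), and mt-Rnr2 from 550 to 693 FPKM in LMA (median 595), against 644, 1001 and 717 FPKM in N (-0.33, adjusted p = 0.061).

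**Figure D2:**
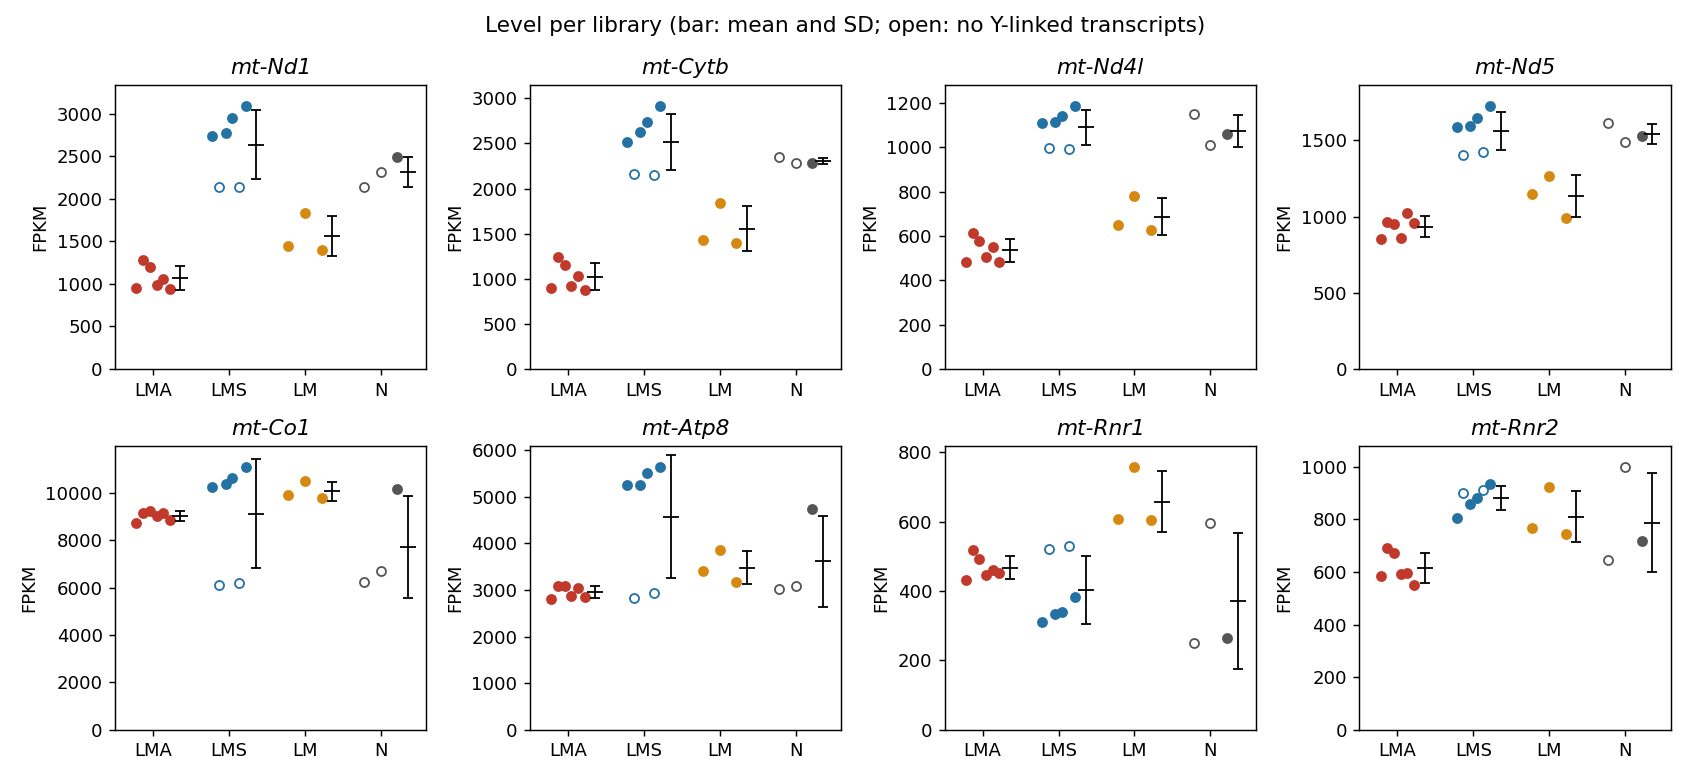
FPKM (linear axis from 0) of 6 protein genes and both rRNAs in each library of LMA, LMS, LM and N, with mean and SD as a bar, and open symbols for the 4 libraries without Y-linked transcripts. For mt-Cytb the LMA libraries sit between 874 and 1243 FPKM and the N libraries between 2284 and 2345, while for mt-Co1 the open symbols sit between 6126 and 6708, below all other libraries.

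The N libraries differed among themselves, and the 14 calls were therefore read against either kind of N library. All 14 genes that fell, the 9 protein genes among them, were also called lower when N 1, N 2, LMS 2 and LMS 5 were left out, and again when N 3, LMS 1, LMS 3, LMS 4 and LMS 6 were. The first setting leaves N 3 as the only N library, which is assumed to vary like the other groups, so it shows the direction against that library and gives no replicate check. mt-Cytb had log2 fold changes of -1.18 and -1.20 in these settings, mt-Nd4l had -0.99 and -1.02, and mt-Nd5 had -0.71 and -0.73. In contrast, mt-Co1 had -0.17 (limma adjusted p = 0.048) against N 3 alone and 0.48 (adjusted p = 6.5e-04) against N 1 and N 2, a change of direction. On the log2 scale, 9 of the 37 genes had opposite signs in the 2 settings. Counts were 29 genes called without N 1, N 2, LMS 2 and LMS 5 (1 higher and 28 lower) and 22 without the other set (6 higher and 16 lower). These settings called 56.4% and 76.0% of all genes, against 78.4% and 59.5% of the mitochondrial genes, so the second count was below the share over all genes.

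The scale of the values moved the split of calls over all genes. With values as TPM the median change over all genes was 0.04 on the log2 scale in place of -0.09, and of the mitochondrial genes 11 were called lower and 1, mt-Rnr1, higher. Of all calls, 1941 of 4674 were higher on the FPKM scale, 2099 of 4052 on the TPM scale and 2503 of 4558 with median-of-ratios factors. With values divided by those factors, 12 were called lower and 1, mt-Ts1, higher. mt-Cytb (-1.06 and -1.08), mt-Nd1 (-0.99 and -1.01) and all other complex I subunits, mt-Nd6 (-0.65 and -0.67) among them, were lower on both scales.

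The second comparison asked what LPPC/MP alone did, and it shared the N libraries with the first. In LM against N, 7 genes fell and 2 rose of 37 (24.3%), where 22.1% of all genes tested were called, 13.5% lower and 8.67% higher. The falls were about as frequent as the background (18.9% of the mitochondrial genes). They took in 6 protein genes. mt-Nd4l had 650, 782 and 628 FPKM in LM, against 1151, 1013 and 1060 FPKM in N (log2 fold change -0.65, SE 0.13, limma adjusted p = 0.0020). mt-Cytb had 1425, 1841 and 1397 FPKM in LM, against 2345, 2288 and 2284 FPKM in N (-0.58, SE 0.17, adjusted p = 0.025). The LM libraries lay below all N libraries for both genes. mt-Nd1 (-0.58), mt-Nd2 (-0.58), mt-Nd4 (-0.46) and mt-Nd5 (-0.45) were the others, and mt-Tw, the tRNA for tryptophan, had -0.65. mt-Rnr1 rose, with 607, 758 and 606 FPKM in LM, against 249, 596 and 265 FPKM in N (0.94, SE 0.28, adjusted p = 0.024). The second gene that rose was mt-Ts1, discussed with the tRNAs.

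These 9 calls were also made in both settings that left out one kind of N and LMS library, with N 3 as the lone N library in one of them. The number called was 0 with only the LM and N libraries in the fit, 2 without LM 1, 2 without LM 3 and 5 without N 1. mt-Atp6 (0.01) and mt-Co3 (0.02) were near 0 in LM against N.

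LMA was next set against LM. LMA mice had the CD28 antibody on particles given after LPPC/MP, so the antibody, the number of particle treatments and the time cannot be told apart here. No mitochondrial gene and 0 of all genes passed (0% called), with 14 mitochondrial genes and 199 of all genes (1.38%) at an unadjusted p under 0.05 by limma. All LMA libraries lay below all LM libraries for 18 of 37 genes (48.6%) and above them for 0. Genes cut from shared precursors are not separate observations, so these are not 18 independent results. Over all genes tested, 3.63% lay below and 2.90% above. Among the 18 were 11 of the 13 protein genes and both rRNAs, the exceptions being mt-Nd5 and mt-Nd6. All 6 erythroid markers also lay below LM in every LMA library, with sums of 1356 to 2630 FPKM in LMA and 4736 to 7062 FPKM in LM and a median log2 difference of -1.53, and their part in the result was not tested. The largest differences among protein genes were in mt-Nd3 (-0.64, SE 0.18), mt-Cytb (-0.61, SE 0.15) and mt-Nd1 (-0.54, SE 0.16), each with a limma adjusted p of 1.0. mt-Rnr1 ran from 433 to 519 FPKM in LMA (median 456), against 607, 758 and 606 FPKM in LM (-0.49, SE 0.24). A limma fit of only these 9 libraries called mt-Rnr1 and mt-Ts1 lower (adjusted p = 0.030 each), which is 5.41%, where 0.875% of all genes were called. Without N 1, N 2, LMS 2 and LMS 5, which changes only the shared estimate of spread, 6 were called lower (16.2%, where 0.493% of all genes were called). These were mt-Cytb, mt-Nd1, mt-Nd4, mt-Rnr1, mt-Te and mt-Ts1. The FPKM of mt-Ts1 did not match its coverage, as given with the tRNAs.

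**Figure D3:**
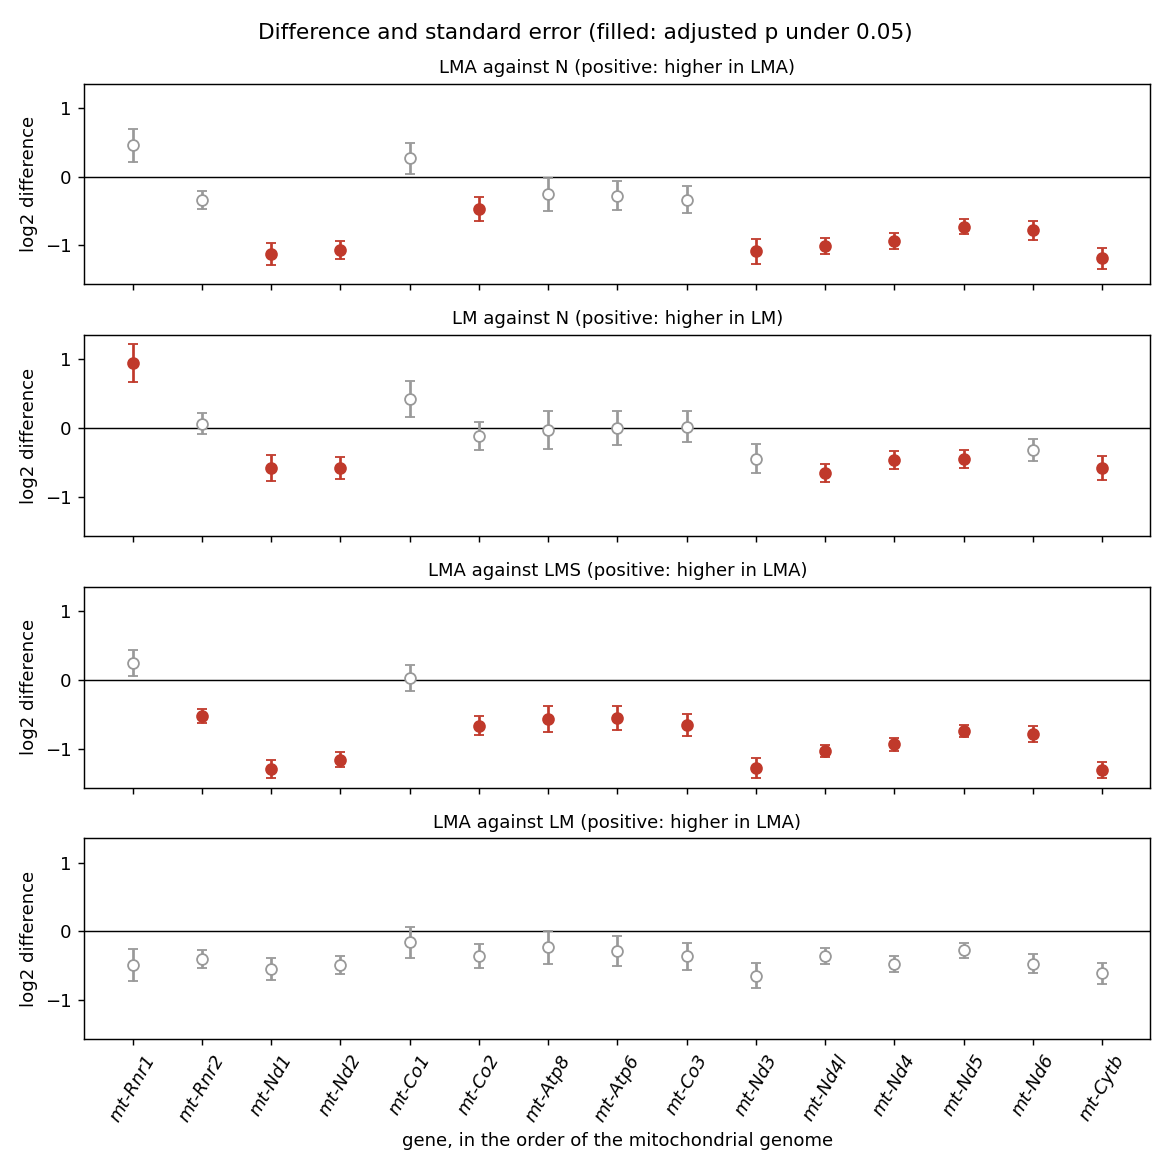
Log2 difference with its standard error for the 13 protein genes and both rRNAs, in the order of the genome, in 4 comparisons, with filled symbols for an adjusted p under 0.05. The 7 complex I genes and mt-Cytb lie at or below -0.73 in LMA against N and in LMA against LMS, and mt-Co1 lies at 0.26 and 0.03.

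LMS, the group given the CTLA4 antibody, was set against N, and both groups mixed kinds of library. The log2 difference was above 0 for 35 of the 37 genes (median 0.18). Over all genes tested it was above 0 for 7418 of 14395 (median 0.01). Of the 37 genes 0 were called in LMS against N (1 at an unadjusted p under 0.05), where 0.00695% of all genes, that is 1 gene, were called and 672 (4.67%) had an unadjusted p under 0.05. The difference of mt-Cytb was 0.12 (SE 0.15), that of mt-Nd4l 0.02 (SE 0.11) and that of mt-Co1 0.23 (SE 0.23). mt-Nd1 ran from 2135 to 3094 FPKM in LMS (median 2764), a range that takes in the 3 N values. Without N 3, 3 genes were called higher, and 23 of 37 genes had opposite signs in the settings without one or the other kind of library.

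Against LM, the LMS libraries had 11 genes called higher and 1 lower (32.4%), where 18.6% of all genes were called, 11.4% higher and 7.16% lower. mt-Nd4l ran from 995 to 1188 FPKM in LMS (median 1112), against 650, 782 and 628 FPKM in LM (0.67, SE 0.11, limma adjusted p = 4.4e-04). mt-Cytb ran from 2148 to 2916 FPKM in LMS (median 2573), against 1425, 1841 and 1397 FPKM in LM (0.70, SE 0.15, adjusted p = 0.0031). mt-Nd1 (0.75), mt-Nd2 (0.67), mt-Nd3 (0.64), mt-Nd5 (0.47) and mt-Nd4 (0.46) were the other protein genes that rose. mt-Rnr1 ran the other way, from 310 to 529 FPKM in LMS (median 362), against 607, 758 and 606 FPKM in LM (-0.73, SE 0.24, adjusted p = 0.043). Same-numbered LMS and LM libraries deviated together, and with the replicate number as a block 7 genes were called, 6 higher (mt-Nd1, mt-Nd2, mt-Nd4l, mt-Nd4, mt-Cytb and mt-Tw) and mt-Rnr1 lower. In both settings without one kind of LMS library 7 genes were higher, namely those 6 and mt-Nd5. With LMS 2 and LMS 5 as the only LMS libraries, 8 others were called lower in LMS than in LM, where 72.2% of all genes were called. These were mt-Co1 (-0.71), mt-Atp8, mt-Atp6, mt-Ts1, mt-Tg, mt-Th, mt-Ts2 and mt-Tl2. In that fit mt-Rnr1 was not called (-0.32, limma adjusted p = 0.30). Between the settings without one or the other kind of library, 16 of 37 genes had opposite signs. The number called was 6 without LM 1 and 5 without LM 3.

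The antibody groups were then set against each other. In LMA against LMS, 24 of 37 genes fell (64.9%) and 0 rose, where 28.1% of all genes were called, 17.3% lower and 10.8% higher. Of the 13 protein genes 12 fell, all but mt-Co1. mt-Cytb had a log2 fold change of -1.31 (SE 0.12, limma adjusted p = 9.2e-07), mt-Nd1 -1.30 (SE 0.13, 1.8e-06) and mt-Nd3 -1.28 (SE 0.15, 7.7e-06). mt-Rnr2 ran from 550 to 693 FPKM in LMA (median 595), against 807 to 934 FPKM in LMS (median 892), with no overlap (-0.52, SE 0.11, adjusted p = 0.0014). mt-Co1 ran from 8708 to 9224 FPKM in LMA, against 6126 and 6198 FPKM in LMS 2 and LMS 5 and 10262 to 11105 in the other LMS libraries, and did not pass (0.03, adjusted p = 0.93).

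Of these 24, 15 were lower in both settings without one kind of LMS library, among them 9 protein genes and mt-Rnr2. The complex V genes and mt-Co3 were not. mt-Atp8 ran from 2801 to 3097 FPKM in LMA, against 2836 and 2929 FPKM in LMS 2 and LMS 5 and 5256 to 5650 in the other 4, and mt-Atp6 had -0.83 without LMS 2 and LMS 5 and -0.03 without the other 4. Over the 37 genes, 23 were called without N 3, LMS 1, LMS 3, LMS 4 and LMS 6, of which 8 were higher and 15 lower (62.2%, where 75.0% of all genes were called).

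Proportions among the protein genes do not depend on library scaling, and they set LMA and LM apart from LMS and N. The share of mt-Co1 in the summed FPKM of the 13 protein genes was 37.3% ± 1.26 in LMA (SD, n = 6), 25.0% ± 1.64 in LMS (n = 6), 34.0% ± 1.81 in LM (n = 3) and 24.4% ± 3.06 in N (n = 3). The LMA libraries ran from 35.4% to 38.6% and those of LM from 32.0% to 35.4%, against 22.9% to 26.4% in LMS and 22.1% to 27.9% in N. The 9 LMA and LM libraries thus did not overlap with the 9 LMS and N libraries, of either kind. The share of mt-Nd1 was 4.42% ± 0.361 in LMA, 7.40% ± 0.433 in LMS, 5.24% ± 0.286 in LM and 7.49% ± 0.598 in N, and that of mt-Cytb ran from 3.76% to 4.81% in LMA, from 6.49% to 8.09% in LMS, from 4.97% to 5.60% in LM and from 6.26% to 8.32% in N. The share of mt-Atp6 moved little, from 10.1% to 12.3% over all 18 libraries.

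Within a library, mt-Co1 had 7.11 to 9.39 times the FPKM of mt-Nd1 in LMA and 5.74 to 6.95 times in LM, against 2.87 to 3.74 times in LMS and 2.90 to 4.07 times in N. mt-Rnr2 had 1.22 to 1.37 times the FPKM of mt-Rnr1 in LMA and 1.22 to 1.26 times in LM, against 1.72 to 2.61 times in LMS and 1.68 to 2.71 times in N. The rRNA ratio of every LMA and LM library thus lay below that of every LMS and N library, while N 1 (2.58) and N 2 (1.68) lay far apart. These proportions were computed after the levels had been seen and were not tested.

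**Figure D4:**
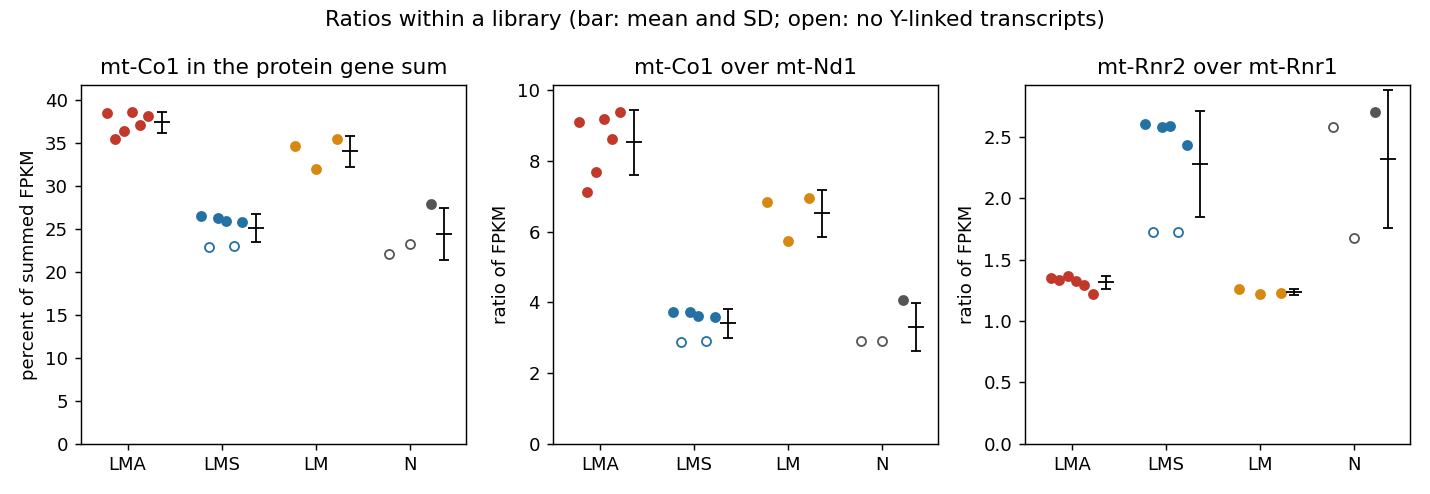
Share of mt-Co1 in the summed FPKM of the 13 protein genes (%), ratio of mt-Co1 to mt-Nd1 and ratio of mt-Rnr2 to mt-Rnr1 in each library, with mean and SD as a bar and open symbols for libraries without Y-linked transcripts. The LMA and LM libraries sit at 32.0% or more in the first panel, and the LMS and N libraries at 27.9% or less.

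The tRNA genes, of 59 to 75 bases, were read with more caution. Their mean levels ran from 1.78 to 461 FPKM. For 10 of the 22, both rRNAs and 11 of the 13 protein genes, the deposited coverage and FPKM stood in the same ratio as for mt-Co1 within 2% in each library, and for the other 12 tRNAs they did not. The extreme was mt-Ts1, the tRNA for serine that overlaps the end of mt-Co1 on the opposite strand. It was listed at 332 to 603 FPKM with a coverage of 0.888 to 8.22, which is 0.243% or less of the coverage its FPKM would give. The call of mt-Ts1 in LM against N (0.58) thus rests on FPKM alone, as do those of mt-Tq, whose coverage was at most 36.2% of that value. mt-Nd6 was at 88.1% to 89.7% and mt-Nd5 at 97.8% to 98.3%.

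Among tRNAs with matching values, mt-Tl1, the tRNA for leucine that lies between mt-Rnr2 and mt-Nd1, ran from 179 to 188 FPKM in LMA (median 184), against 300, 232 and 529 FPKM in N (log2 fold change -0.86, SE 0.30, limma adjusted p = 0.042). The call was lost in 15 of 32 other settings, among them the TPM and median-of-ratios scales, no filter, the replicate block and the omission of any 1 LMA or LM library, N 1 or N 3, and the difference was -1.52 against N 3 alone and -0.52 without it. It was lower than in every N library, and its LM values of 185, 206 and 179 FPKM lay beside those of LMA. In LMS it ran from 213 to 526 FPKM (median 489). Of the other tRNAs, mt-Te (glutamate, -0.74), mt-Tm (methionine, -1.01), mt-Tq (glutamine, -0.90) and mt-Tw (tryptophan, -0.63) fell in LMA against N, which makes 5 of 22 (22.7%, where 19.0% of all genes were lower), and 11 of 22 fell in LMA against LMS (50.0%, where 17.3% were). These 4 are among the 12 tRNAs whose coverage and FPKM did not match.

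Wide variation among libraries was seen in a block of 3 adjoining tRNA genes, mt-Th, mt-Ts2 and mt-Tl2 (MT:11546-11741, plus strand), for histidine, serine and leucine. Their sequences from the GENCODE M21 transcripts are shown because the 3 moved as 1 unit over the libraries, with the anticodon in capitals.
mt-Th: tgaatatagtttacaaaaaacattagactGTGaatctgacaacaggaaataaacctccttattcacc
mt-Ts2: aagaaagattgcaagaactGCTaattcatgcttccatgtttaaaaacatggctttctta
mt-Tl2: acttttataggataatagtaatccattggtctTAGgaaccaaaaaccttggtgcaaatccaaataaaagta
mt-Th ends at the base before mt-Ts2, and mt-Ts2 overlaps mt-Tl2 by 1 base. mt-Ts2 ran from 41.7 to 93.0 FPKM in LMA, was 21.3 and 25.6 FPKM in LMS 2 and LMS 5 and 121 to 158 FPKM in the other LMS libraries, and was 53.9, 74.5 and 98.6 FPKM in LM and 19.1, 41.5 and 93.4 FPKM in N. This is a range of 8.26 times over the 18 libraries, below that of mt-Tf (14.2 times) and mt-Tg (12.4 times), which were listed at low levels, while the highest of the 3 genes had 1.05 to 1.35 times the level of the lowest within a library. No group comparison of all libraries called any of the 3 genes, and the direction of LMA against LMS turned with the LMS libraries kept. For mt-Ts2 the log2 difference was 1.63 without N 3, LMS 1, LMS 3, LMS 4 and LMS 6. It was -0.90 without N 1, N 2, LMS 2 and LMS 5. mt-Th and mt-Tl2 turned likewise.

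N 1 stood apart in single genes. mt-Tr (arginine) had 20.4 FPKM there, against 2.85 to 8.99 FPKM in the other 17 libraries, and mt-Tg (glycine) had 13.1 FPKM, against 1.06 to 9.75 FPKM.

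**Figure D5:**
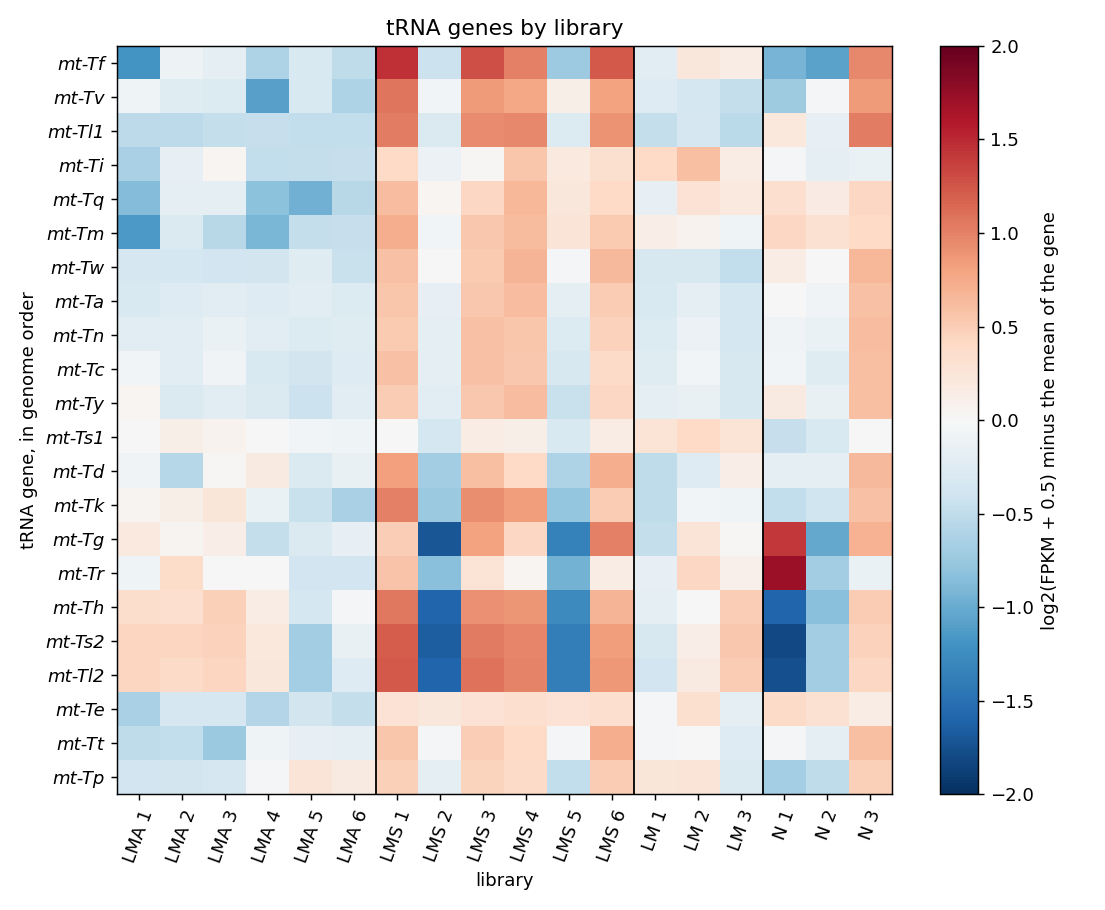
Levels of the 22 tRNA genes in genome order, as log2(FPKM + 0.5) minus the mean of the gene over the 18 libraries, with red above and blue below that mean and black lines between LMA, LMS, LM and N. LMS 2, LMS 5, N 1 and N 2 are low in the mt-Th, mt-Ts2 and mt-Tl2 block, and N 1 is high in mt-Tg and mt-Tr.

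The nuclear genes that serve the mitochondrial genome were then counted in LMA against N, where 19.0% of all genes were called lower and 13.5% higher. Of 10 genes for mitochondrial transcription 6 fell and 1 rose, with a median log2 fold change of -0.79. Tfam, which packages mitochondrial DNA and opens its promoters, averaged 5.64 ± 0.463 FPKM in LMA and 12.0 ± 2.30 in N (SD, n = 6 and 3, -1.01, SE 0.12, limma adjusted p = 1.4e-05). Polrmt, the RNA polymerase of mitochondria, averaged 3.29 ± 0.335 FPKM in LMA and 6.75 ± 1.20 in N (-0.92, SE 0.14, adjusted p = 1.3e-04). Tfb2m, the initiation factor that works with it, averaged 4.50 ± 0.293 FPKM in LMA and 8.26 ± 0.184 in N (-0.81, SE 0.07, adjusted p = 1.3e-06). Tfb1m, which methylates the 12S rRNA, rose by 0.48 (adjusted p = 0.0496), a call lost in 20 of 32 other settings. Of the 10, 6 were lower in LM against N, 0 were called in LMS against N or LMA against LM, 6 were higher in LMS against LM and 6 were lower in LMA against LMS.

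Genes for processing of mitochondrial RNA and for maintenance of its DNA had fewer calls. Of 22 processing genes 7 fell (31.8%) and 0 rose in LMA against N, with a median of -0.06, and the share called was about that over all genes (32.5%). Fastkd5, needed for cutting precursors at sites without tRNAs, had -1.39 (1.74 ± 0.231 FPKM in LMA and 5.46 ± 1.50 in N), Fastkd2 had -0.92, and Elac2, which trims the tail end of tRNAs, had -0.40. Of 11 maintenance genes 4 fell (36.4%) and 0 rose, among them Polg, the DNA polymerase (-0.99), Peo1, the helicase Twinkle (-0.82), and Endog (-0.43). Of 6 regulators of mitochondrial biogenesis 2 fell (33.3%), Nrf1 (-0.96) and Yy1 (-0.37). These counts also depended on the N libraries. Without N 3, LMS 1, LMS 3, LMS 4 and LMS 6, 11 processing genes were higher and 7 lower. The maintenance list then had 4 higher and 7 lower and the biogenesis list 1 higher and 3 lower, where 76.0% of all genes were called. With N 3 as the only N library, a setting without a replicate check, the calls of the processing list instead all ran lower.

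Few nuclear subunits of the respiratory chain were called. Of 76 tested, 3 rose (Atp5d, Uqcrq and Ndufv3, the last call lost in 19 of 32 settings) and 2 fell (Ndufb11 and Ndufa11) in LMA against N, 6.58% in all, with a median of 0.23. Of 80 mitochondrial ribosomal protein genes 6 rose and 7 fell (16.3%), with a median of 0.15. These counts depended on the N libraries: without N 1, N 2, LMS 2 and LMS 5, 2 nuclear respiratory chain genes were higher and 48 lower, and without N 3, LMS 1, LMS 3, LMS 4 and LMS 6, 60 were higher and 3 lower. The mitochondrial ribosome list turned likewise, with 3 higher and 51 lower in the first setting and 54 higher and 7 lower in the second. For transcription genes the counts were 6 lower and 0 higher in the first setting and 7 lower and 1 higher in the second. Both settings also called most of the genes tested, as given above, with 76.0% in the second. The first leaves N 3 as the only N library and gives no replicate check. Beside these results, the 6 markers of neutrophil precursors summed to 614 to 839 FPKM in LMA and 446 to 527 FPKM in LM, against 20.1 to 120 FPKM in LMS and 3.34 to 124 FPKM in N, and their part in the results was not tested.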

How the data were processed

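The authors sequenced splenocyte RNA in 18 libraries on an Illumina NovaSeq instrument. The deposited tables give FPKM, which the authors computed per gene, and a deposited coverage signal, used only as a check and to derive depth. The submitters' processing notes name mm10 and GATK 4.2, while aligner, quantifier and strand setting were not given in the sources used. Positions of all 37 genes were checked against GENCODE M21 on GRCm38 and were the same.

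Differences were fitted with limma 3.58.1 in R 4.3.3 (moderated, with a mean-variance trend) on log2(FPKM + 0.5) in all 18 libraries with group as the only term, over the 14395 reference genes averaging 0.5 FPKM or more, and adjusted by the Benjamini-Hochberg method per comparison. Fold changes are on this scale, which understates changes of low genes. The 6 comparisons share libraries. All 37 genes were tested, and from each other list up to 3 called genes per direction with the smallest adjusted p in LMA against N were named. The members and lists were chosen with earlier results of these data known. Labels number the replicates, and same-numbered LMS and LM libraries deviated together in all 3 pairs (r of 0.17 to 0.38). In no other comparison did all pairs do so. The r of single pairs nevertheless ran from -0.611 to 0.887 in LMS against N and reached 0.348 in LM against N. Each table also lists 37 assembled loci with the same spans and values, which were not used. The test was checked on simulated data. Dixon checks of 82 values in groups of 6 found no single outlying library at a limit of 0.625, but such a check cannot see 2 libraries that stand apart together, as LMS 2 and LMS 5 did.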

Additional observations from a re-analysis of the deposited data

How the results depend on the processing

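The 32 settings tried changed the pseudocount, the filter, the scale, the samples, the weights and the block. The 14 genes called in LMA against N became 12 to 15 when 1 library was left out, and the 24 in LMA against LMS became 20 to 26. LM against N gave 2 to 10 calls in such fits (2 without LM 1, 2 without LM 3, 5 without N 1), LMS against LM 5 to 15, LMS against N 0 to 3 and LMA against LM 0. The share over all genes is not given for fits that leave out 1 library, so these numbers were not set against a background. LM against N had 3 calls with no filter (8.11%, where 9.28% of all genes were called) and 3 on the TPM scale (8.11%, where 17.5% were). LMS against LM had 4 with no filter (10.8%, where 9.09% were) and 6 on the TPM scale (16.2%, where 14.8% were). With only the groups compared, LM against N had 0 calls, where 0.368% of all genes were called, and LMA against LM had 2 (5.41%, where 0.875% were). Sample weights gave 25 calls for LMA, 22 for LM and 27 for LMS, each against N, and 16 for LMA and 33 for LMS against LM, while 79.8%, 78.5% and 78.2% of all genes were called against N and 1.12% and 63.1% against LM, so the shares against N (67.6%, 59.5% and 73.0%) were below those over all genes. The replicate block gave 5 calls for LM (13.5%), 12 for LMA (32.4%) and 0 for LMS against N. Over all genes, 19.8%, 25.5% and 0% were called there. Against LM it gave 7 for LMS (18.9%, where 14.4% of all genes were called) and 0 for LMA. In LMA against LMS it gave 24 (64.9%, where 26.8% were). Without N 1, N 2, LMS 2 and LMS 5 LMA had 29 calls against N and 6 against LM, LM had 23 against N and LMS had 31 against LM, and without N 3, LMS 1, LMS 3, LMS 4 and LMS 6 LMA had 22 and LM had 19 against N (59.5% and 51.4%, where 76.0% and 72.9% of all genes were called). With the copies on chromosome 1 added, a setting chosen after seeing the data, LMA against N had 13 calls and LMA against LMS 24. The share of aligned sequence with the copies added was 3.29% in LMA, 4.59% in LMS, 4.02% in LM and 3.98% in N, and that of protein genes alone was 2.52% in LMA. The causes were not tested.

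Directions turned for some genes. With sample weights, log2 fold changes in LMA against N were -0.31 for mt-Rnr1, 0.84 for mt-Tg and 0.53 for mt-Tr, that of mt-Rnr2 in LM against N was -0.31, that of mt-Rnr1 in LMS against N was -0.75, and those in LMA against LMS were -0.22 for mt-Co1, -0.10 for mt-Ts1 and -0.72 for mt-Th. Without N 1, N 2, LMS 2 and LMS 5 they were -0.17 for mt-Co1 and -0.025 for Ndufv3 in LMA against N, -0.35 for mt-Atp6 in LM against N, and -0.23 for mt-Co1 and -0.73 for mt-Th in LMA against LMS. Without N 3, LMS 1, LMS 3, LMS 4 and LMS 6 they were -0.27 for mt-Atp8 and -0.26 for mt-Atp6 in LMS against LM, and in LMA against LMS 0.011 for mt-Tn, 0.037 for mt-Tc, 0.51 for mt-Td, 0.62 for mt-Tk, 0.037 for mt-Atp8, 1.44 for mt-Tg, 1.63 for mt-Ts2 and 1.58 for mt-Tl2.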
